A study of Mus musculus with 8 samples.

Results

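The loci examined here are those of 10 mouse genes of the thin-filament switch of striated muscle: the troponin T genes Tnnt1, Tnnt2 and Tnnt3, the troponin I genes Tnni1 and Tnni2, the troponin C genes Tnnc1 and Tnnc2, and the tropomyosin genes Tpm1, Tpm2 and Tpm3. They were chosen by name, as 10 of the 34328 protein-coding and long noncoding RNA genes placed on chromosomes 1 to 19 and X by the RefSeq table used. A locus was the gene body extended by 10 kb at each end, and its measure was the length of sequence covered by ATAC-seq peaks. All 10 loci passed the filter on low values (200 covered bp or more in 2 or more libraries), as did 27938 genes in all.

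ATAC-seq marks open chromatin by the cuts of the Tn5 transposase. The study applied it to satellite cells, the stem cells of skeletal muscle, from the hindlimb of C57BL/6 mice, in 8 libraries that make 4 groups of 2. QSC were freshly isolated cells and ASC were cells isolated 2.5 days after injury. In the other groups cultured satellite cells received either a control siRNA or, for 48 h before harvest, one targeting LncMyod, which is a noncoding RNA encoded near Myod1. The growth medium was F10 with 10% HS. Whether replicates came from separate mice or cultures is not stated in the labels, so the p-values below reflect the spread among these libraries alone, and that spread may be technical. Injury, culture, siRNA treatment and any differentiation in culture cannot be told apart between the isolated and the cultured groups.

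In the sarcomere, tropomyosin lies along the actin filament and blocks myosin from it at rest. The troponin complex holds it there: troponin C binds calcium, troponin I is the inhibitory subunit, and troponin T ties the complex to tropomyosin. Separate genes encode these subunits for fast fibres (Tnnt3, Tnni2, Tnnc2) and for slow fibres (Tnnt1, Tnni1, Tnnc1), and Tnnc1 also serves the heart. Tnnt2 is the cardiac troponin T gene and is also used in embryonic and regenerating skeletal muscle. Tpm1 and Tpm2 encode alpha- and beta-tropomyosin, Tpm3 the slow-fibre form, and these 3 genes also give rise to non-muscle forms through alternative promoters and splicing.

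Peaks numbered 59666 to 95449 and covered 42.4 to 64.0 Mb per library. The lists hold no read counts, so depth is unknown, and the absence of a peak does not show closed chromatin. Covered length was therefore scaled to each library's total. The 8 satellite cell and myoblast markers (Pax7, Myf5 and others) held peaks in all 8 libraries, with a summed scaled length of 32.0 to 43.8 kb. Over 6 leukocyte markers the sum was 1.26 and 1.22 kb in QSC, 5.84 and 3.85 kb in ASC, 9.58 and 8.85 kb in control siRNA, and 7.42 and 12.0 kb in LncMyod siRNA. In the QSC libraries 4 and 5 of these 6 were listed at 0, Ptprc, Itgam, Laptm5 and Adgre1 among them, and Adgre1 was at 0 in all libraries but LncMyod siRNA replicate 2. Ptprc was at 0 in both LncMyod siRNA libraries too, and had 0.286 to 0.77 kb in ASC and control siRNA. Over 5 cardiomyocyte markers, the sum was 4.65 and 4.03 kb in QSC and 6.72 to 9.46 kb in the other libraries. Nppa and Nppb were at 0 in QSC, and Myh6 had 0.741 and 0.827 kb there and 0.961 to 2.23 kb elsewhere. Nkx2-5 and Ryr2 did not follow: Nkx2-5 had 2.26 and 1.2 kb in QSC and 1.47 to 1.96 kb in culture. Ryr2 had 1.65 and 2.0 kb in QSC and 1.32 to 2.11 kb in culture. Endothelial markers summed to 10.6 to 14.8 kb, mural markers to 12.0 to 16.1 kb and fibroadipogenic markers to 8.92 to 17.8 kb, the last highest in QSC replicate 1. The sums over leukocyte and cardiomyocyte marker loci thus moved in the same direction as several loci below, though not every marker did. Their part in the results was not tested. In these bulk samples, more cells with an open locus and a wider opening per cell cannot be told apart.

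The starts of 2 slow troponin genes, Tnnt1 and Tnni1, carried a peak in every cultured library and in no isolated one. Around each start annotated by RefSeq (build GRCm38.p6, whose main chromosomes have mm10 coordinates), the 250 bases before it and the 50 after it were examined. Such windows were at hand for 8 of the 10 members and numbered 11; Tnnt3 and Tnni2 had no entry. In the Tnnt1 window, peaks covered 300 and 249 bp in control siRNA and 300 and 96 bp in LncMyod siRNA. The first of the Tnni1 windows was covered whole in all 4 cultured libraries, and the second, which overlaps it, by 249 to 300 bp. All 3 windows were at 0 in QSC and ASC. Over all 32619 windows of the table, 0.325% had this pattern. The first Tnnt2 start was also covered whole in the 4 cultured libraries, but QSC replicate 1 held a peak over 203 bp of it.

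The sequences before the starts of Tnnt1, Tnni1 and Tnnt2 are printed because peaks lay there in the cultured libraries. Those of Tpm2, covered in all 8 libraries, and of Tnnc1, covered in none, are printed for contrast. They run 5′ to 3′ up to the start or, for Tnnt2 and Tpm2, up to the edge of the annotated gene body, from the RefSeq table of GRCm38.p6. Tnnt1 is chr7:4515976-4516225 on the minus strand, Tnni1 chr1:135799171-135799420 on the plus strand, and Tnnt2 chr1:135836084-135836314 on the plus strand. Tpm2 is chr4:43523584-43523804 on the minus strand and Tnnc1 chr14:31208062-31208311 on the plus strand. The Tnni1 stretch lies inside the annotated gene body, which begins further upstream. Capitals mark CAGCTG and CACCTG, forms of the E-box bound by MyoD-family factors, and CATTCC, the core of the MCAT element bound by TEAD factors, on either strand (CAGGTG and GGAATG are the other-strand forms).
Tnnt1: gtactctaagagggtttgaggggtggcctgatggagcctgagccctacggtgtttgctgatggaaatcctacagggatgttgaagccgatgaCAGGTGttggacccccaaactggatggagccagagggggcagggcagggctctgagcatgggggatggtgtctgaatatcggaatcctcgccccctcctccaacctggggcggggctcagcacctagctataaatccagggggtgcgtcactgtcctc
Tnni1: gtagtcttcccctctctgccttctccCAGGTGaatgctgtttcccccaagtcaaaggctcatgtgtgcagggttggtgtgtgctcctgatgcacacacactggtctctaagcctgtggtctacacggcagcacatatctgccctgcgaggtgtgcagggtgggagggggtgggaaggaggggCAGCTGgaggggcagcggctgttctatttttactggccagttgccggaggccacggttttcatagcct
Tnnt2: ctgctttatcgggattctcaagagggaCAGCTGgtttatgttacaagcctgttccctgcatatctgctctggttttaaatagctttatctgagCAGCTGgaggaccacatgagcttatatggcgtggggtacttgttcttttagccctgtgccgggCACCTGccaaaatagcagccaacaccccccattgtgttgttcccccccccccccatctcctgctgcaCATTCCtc
Tpm2: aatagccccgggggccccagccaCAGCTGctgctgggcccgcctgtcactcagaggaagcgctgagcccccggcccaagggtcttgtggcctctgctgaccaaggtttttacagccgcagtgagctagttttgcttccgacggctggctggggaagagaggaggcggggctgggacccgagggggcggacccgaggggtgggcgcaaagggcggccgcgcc
Tnnc1: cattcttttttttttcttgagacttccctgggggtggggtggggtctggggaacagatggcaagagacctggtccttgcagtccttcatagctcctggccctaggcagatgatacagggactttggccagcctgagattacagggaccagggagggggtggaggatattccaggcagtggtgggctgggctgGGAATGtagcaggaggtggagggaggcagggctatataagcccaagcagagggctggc

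Within the 250 bases before the 11 starts, CAGCTG occurred in 5 windows and in 13.1% of all 32619 windows. These 5 were both Tnni1 windows, which share the same site, the first Tnnt2 window, the first Tpm3 window and Tpm2. CACCTG occurred in 4 (Tnni1, Tnnt2, Tnnc2 and Tnnt1; 17.3% of all) and CATTCC in 3 (Tnnt2, Tpm1 and Tnnc1; 12.6% of all). The looser E-box CANNTG, which includes the first 2 motifs, was in all 11 and in 66.2% of all windows. TATAAA was in 1 of the 11, that of Tnnt1, and in 12.4% of all. The MEF2 and CArG motifs were in none of the 11, and in 2.84% and 1.48% of all windows. E-boxes stood before starts with peaks and before starts without them: the Tnnc2 window had a CACCTG and held a peak in LncMyod siRNA replicate 1 alone. These are matches of letters and say nothing of binding.

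Starts of the tropomyosins followed other patterns. Tpm1, Tpm2 and the second Tpm3 start held a peak in all 8 libraries, as 40.9% of all windows did. The first Tpm3 start was covered in control siRNA replicate 1 (271 bp) and LncMyod siRNA replicate 1 (51 bp). Tnnc1 and the second Tnnt2 start held no peak in any library, as 46.2% of all windows did. The peaks over the slow troponin starts were modest. At Tnni1 (chr1:135798521-135799728) the fold enrichments deposited by the authors were 2.87 and 2.68 in control siRNA and 2.25 and 2.17 in LncMyod siRNA. In lists shortened to equal length, the 3 windows were each held by 3 of the 4 cultured libraries, and with peaks of −log10 q of at least 5 by 2 (Tnni1) and 3 (Tnnt1), in both cases by no isolated one.

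**Figure D1:**
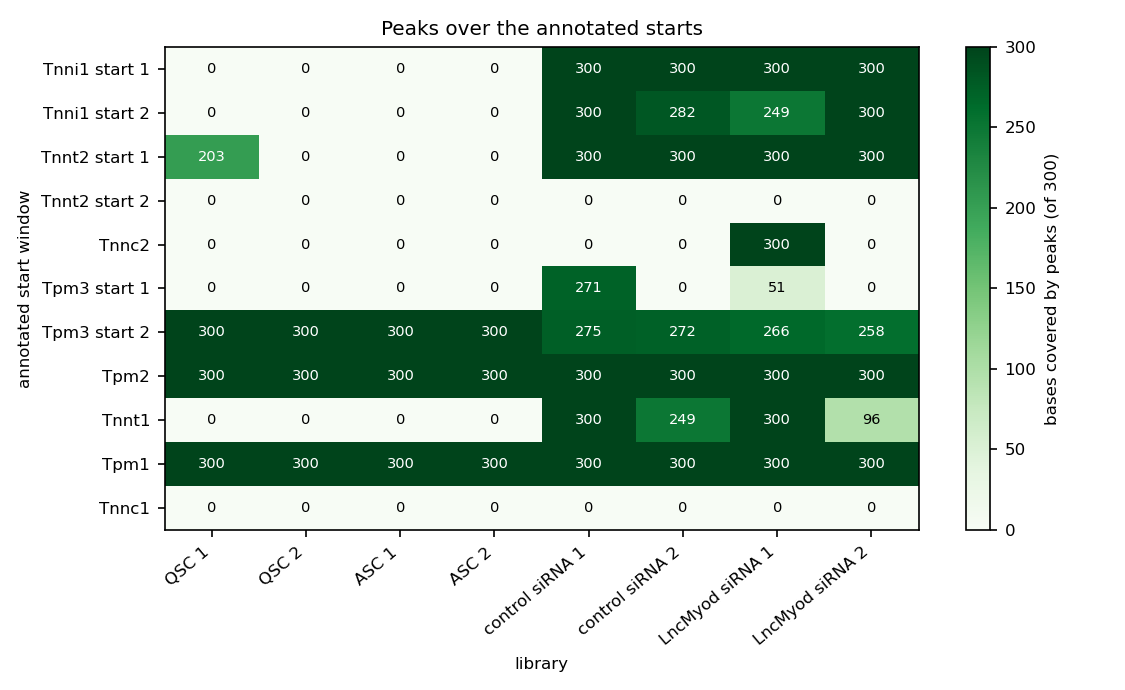
Bases of each 300 bp start window (rows) covered by peaks in each library (columns); darker green is more. The Tnni1 and Tnnt1 windows read 0 in the 4 isolated libraries and between 96 and 300 in the 4 cultured ones, whereas Tpm1 and Tpm2 read 300 throughout.

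Over whole loci, the cultured libraries had the most covered sequence. The 10 loci summed to 26.9 and 28.2 scaled kb in QSC, 29.7 and 32.2 kb in ASC, 50.3 and 45.6 kb in control siRNA, and 40.9 and 41.7 kb in LncMyod siRNA. No cultured library overlapped an isolated one. Without regard to width, the loci held 42 and 38 peaks in QSC, 47 and 41 in ASC, 60 and 56 in control siRNA, and 64 and 52 in LncMyod siRNA. Numbers of peaks, here and below, were not scaled to the length of the lists. The lists held 59666 to 70341 peaks in the isolated and 79396 to 95449 in the cultured libraries, so part of a gain in number can follow list length. In covered length, both control siRNA libraries exceeded both QSC libraries for every member (10 of 10), a pattern seen in 33.2% of all genes tested, and for none were both below (34.1% of all genes). Both ASC libraries exceeded both QSC libraries at 4 members and lay below them at 2, against 33.1% and 21.7% of all genes. Both control siRNA libraries exceeded both ASC libraries at 7 and lay below them at 1, Tnnc2, against 21.4% and 34.6% of all genes. Per kb of locus, Tpm2 had 169 and 174 covered bp in QSC and 222 and 223 bp in control siRNA. The thinnest were Tnnt2 in QSC, with 40.4 and 33.7 bp per kb, and Tpm3 in control siRNA, with 72.6 and 70.7 bp per kb.

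**Figure D2:**
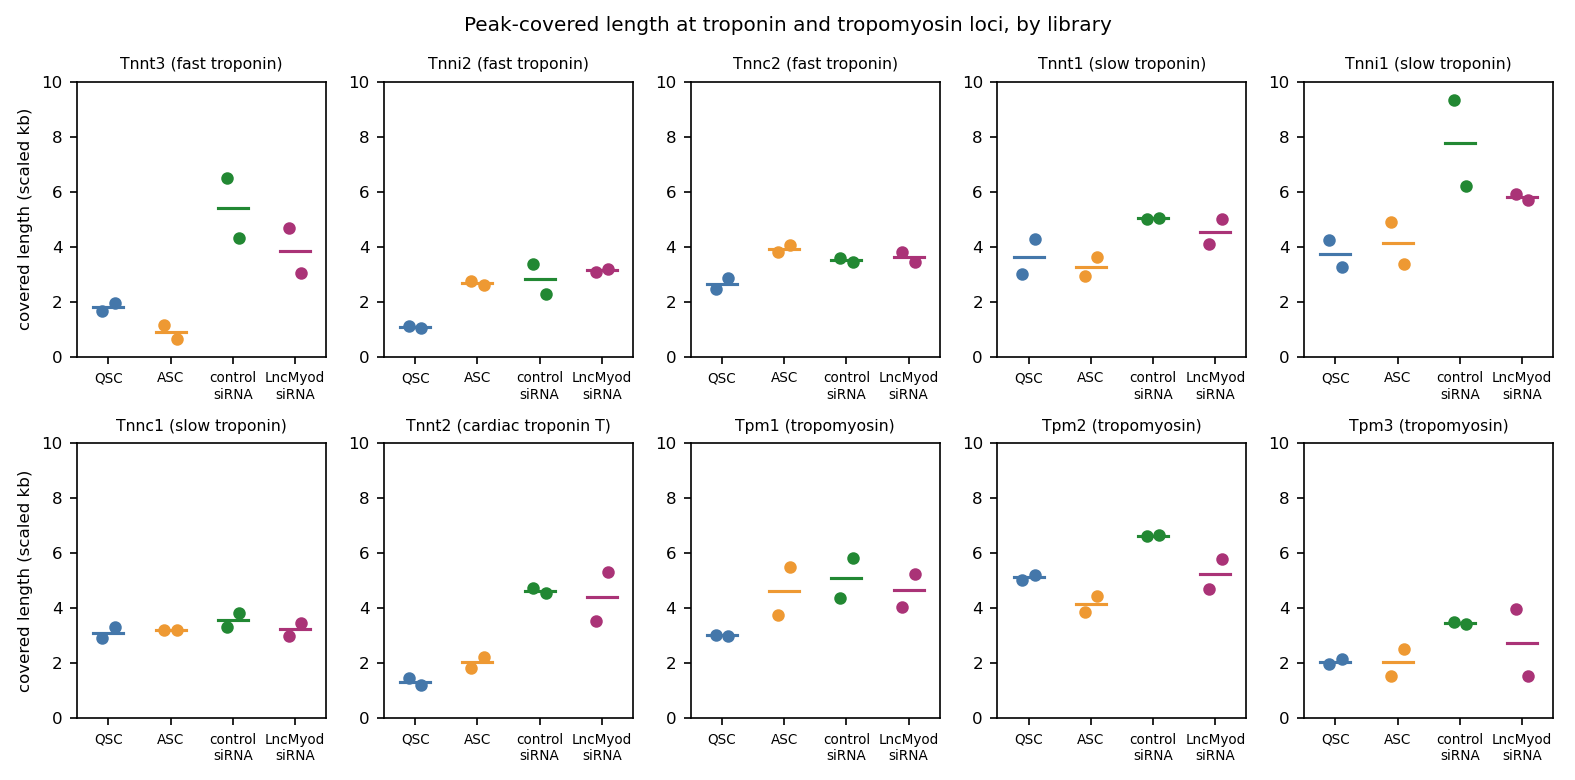
Scaled covered length in kb (vertical axis) of each locus in the 8 libraries, by group; points are libraries and bars group means of 2. Tnnt2 lies at 1.21 to 2.23 kb in the isolated libraries and at 3.53 to 5.30 kb in the cultured ones, while Tnnc1 stays between 2.90 and 3.84 kb throughout.

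Changes were tested with limma on log2(scaled bp + 500 bp), a scale on which loci with few covered bases change less than in bp, and p-values were adjusted by Benjamini-Hochberg over all 27938 genes. Between ASC and QSC, 2 members rose (Tnni2 and Tnnc2) and none fell, against 12.8% of all genes called, 7.56% higher and 5.25% lower. Control siRNA against ASC gave 3 members that rose (Tnnt3, Tnnt2 and Tpm2) and none that fell, against 3.99% of all genes called, 2.28% higher and 1.72% lower. Control siRNA against QSC gave 4 (Tnnt2, Tnni2, Tnnt3 and Tnni1), all higher, against 16.9% called, 9.96% higher and 6.95% lower. LncMyod siRNA against control siRNA gave none, against 0.0215% called, all of them higher. The median log2 change of the members was 0.08, 0.59, 0.64 and -0.13 in these comparisons, beside 0.06, -0.08, 0.00 and -0.05 over all genes. The comparisons share libraries and are not independent. With 2 libraries per group, none of these 9 calls held with each of its 4 libraries left out in turn, as given for each gene, where the lone library left in a group is assumed to vary like the other groups. Over up to 12 other settings of scaling, locus, peaks or fit, the rise of Tnnt2 from QSC to control siRNA was past the threshold in 11 and that of Tnnc2 from QSC to ASC in 3.

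**Figure D3:**
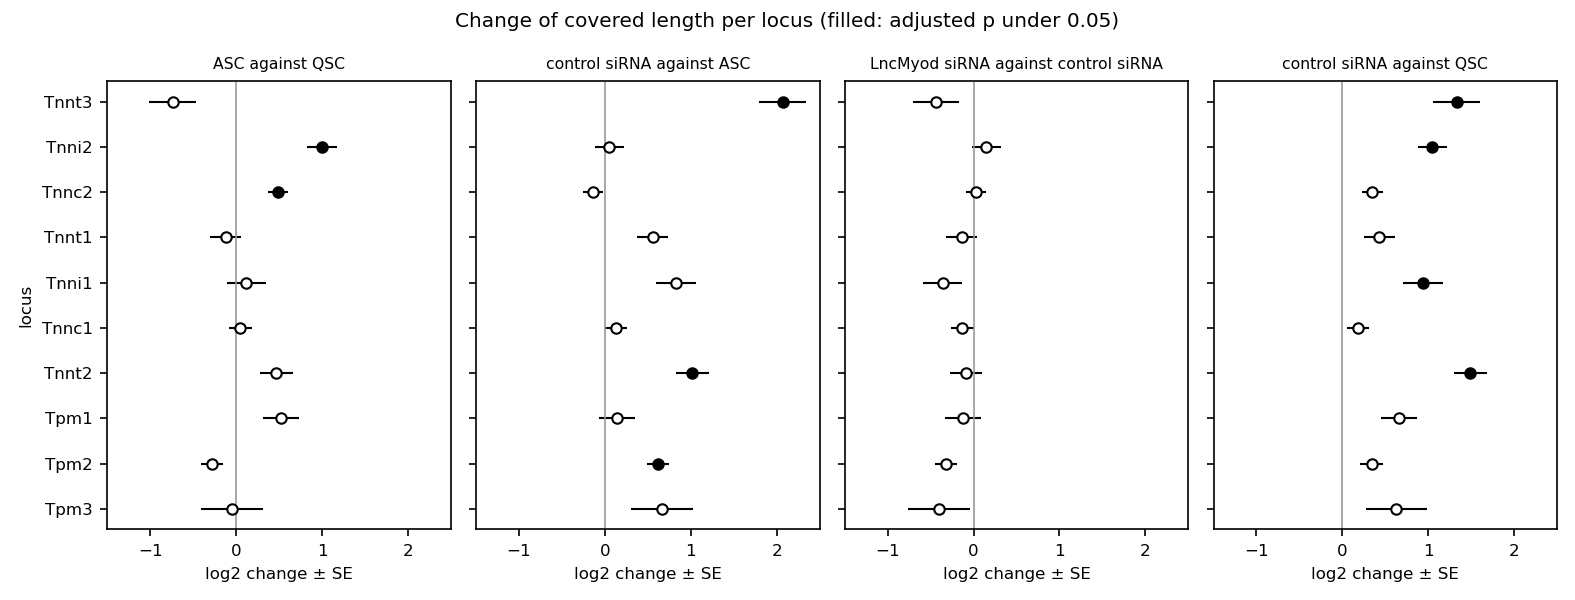
Log2 change of covered length with its SE (horizontal axis) for each locus (vertical axis) in the 4 comparisons; filled points have an adjusted p under 0.05. Filled points number 2, 3, 0 and 4 from left to right, and all lie to the right of 0.

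Tnnt3, the fast troponin T gene (chromosome 7, 142498771 to 142516213), had the largest change among the members. Its locus held 1.67 and 1.95 scaled kb in QSC, 1.14 and 0.662 kb in ASC, 6.48 and 4.33 kb in control siRNA, and 4.68 and 3.04 kb in LncMyod siRNA. Both ASC libraries were the lowest and no cultured library overlapped an isolated one. From ASC to control siRNA the locus rose by a log2 change of 2.07 (SE 0.27, limma adjusted p = 0.0187). The adjusted p was 0.0410 without ASC replicate 1, 0.0810 without ASC replicate 2, and 0.125 and 0.108 without control siRNA replicates 1 and 2. Against QSC it rose by 1.33 (SE 0.27, adjusted p = 0.0193), with adjusted p from 0.0538 to 0.128 when any 1 of the 4 libraries was left out. Most of the length lay in 1 region at the low-coordinate edge of the gene body (chr7:142496251-142500437), which also overlaps the body of Prr33. In unscaled bp, as for all regions here, peaks covered 1657 and 1791 bp of it in QSC, 907 and 548 bp in ASC, 4161 and 4096 bp in control siRNA, and 3457 and 2382 bp in LncMyod siRNA. The region was narrow in ASC but its authors' fold was highest there, 4.45 and 4.07, against 2.36 to 3.29 in the other libraries. Between ASC and QSC the change over the whole locus was -0.74 (adjusted p = 0.123). Other settings called Tnnt3 there in opposite directions: over the gene body alone the change was 1.21 (adjusted p = 0.0489), and with lists of equal length -0.86 (adjusted p = 0.0206).

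Tnnt1, the slow troponin T gene (chromosome 7, 4504569 to 4515975), did not pass the test in any comparison, although its start held peaks in the cultured libraries alone. The locus held 3.00 and 4.28 kb in QSC, 2.92 and 3.63 kb in ASC, 5.01 and 5.05 kb in control siRNA, and 4.09 and 4.99 kb in LncMyod siRNA. Both control siRNA libraries lay above all isolated ones. The change from ASC to control siRNA was 0.56 (SE 0.18, adjusted p = 0.135). With peaks of −log10 q of at least 5 alone, it was 0.93 (adjusted p = 0.0131), and with lists of equal length 0.82 (adjusted p = 0.0240). It was smaller over the gene body alone (0.29, adjusted p = 0.599), with flanks of 50 kb (0.14, adjusted p = 0.427) and by number of peaks (0.18, adjusted p = 0.822). The region over the start (chr7:4515883-4516934) was covered by 913 and 958 bp in control siRNA, 990 and 796 bp in LncMyod siRNA, 235 bp in ASC replicate 1, and none in the remaining isolated libraries. A region upstream of the start (at -5078 bp), inside Tnni3, the cardiac troponin I gene next to it, was held by both QSC libraries and no other.

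Tnnt2, the cardiac troponin T gene (chromosome 1, 135836315 to 135852268), held 1.45 and 1.21 kb in QSC, 1.84 and 2.23 kb in ASC, 4.72 and 4.55 kb in control siRNA, and 3.53 and 5.30 kb in LncMyod siRNA. QSC, ASC and the cultured libraries did not overlap. The locus rose from QSC to control siRNA by 1.49 (SE 0.19, adjusted p = 0.00533). That call held without either control siRNA library or QSC replicate 1 (adjusted p from 0.0421 to 0.0451) and was lost without QSC replicate 2 (0.0546). From ASC it rose by 1.02 (SE 0.19, adjusted p = 0.0388), and the adjusted p was 0.103 to 0.191 with any 1 of the 4 libraries left out. From QSC to ASC the change was 0.47 (adjusted p = 0.165). Inside the gene, the region chr1:135843536-135845385 was held by all 8 libraries, and peaks covered 266 to 363 bp of it in the isolated ones and 1269 to 1727 bp in the cultured ones. Its −log10 q was 1.91 to 3.88 in the former and 16.6 to 28.4 in the latter.

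Of the troponin I genes, Tnni2 passed the test in both ASC and control siRNA against QSC and Tnni1 in control siRNA alone, and the difference between the genes was not tested. Tnni2, the fast form (chromosome 7, 142441816 to 142444410), held 1.12 and 1.06 kb in QSC, 2.75 and 2.60 kb in ASC, 3.38 and 2.28 kb in control siRNA, and 3.08 and 3.20 kb in LncMyod siRNA. QSC stood below all 6 other libraries, which overlapped each other. The locus rose from QSC to ASC by 1.00 (SE 0.17, adjusted p = 0.0139), from 1.09 ± 0.0402 kb to 2.68 ± 0.108 kb (SD, n = 2 libraries each). With any 1 of the 4 libraries left out, the adjusted p was 0.0505 to 0.0993. From QSC to control siRNA it rose by 1.05 (SE 0.17, adjusted p = 0.0100). There the adjusted p was 0.0315 without control siRNA replicate 2, 0.0518 without control siRNA replicate 1, and 0.0658 and 0.0781 without QSC replicates 1 and 2. The covered sequence was not in the gene itself. All 3 regions held by the 8 libraries overlap the neighbouring gene Syt8, a synaptotagmin gene, and the Tnni2 body held 1 peak, in LncMyod siRNA replicate 2. The change was one of width: the region chr7:142433605-142435882 was covered by 456 and 215 bp in QSC, 1583 and 1584 bp in ASC, and 1180 to 2277 bp in culture, and by peak number the change from QSC to control siRNA was 0.00.

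Tnni1, the slow form (chromosome 1, 135783033 to 135810989), held 4.25 and 3.25 kb in QSC, 4.91 and 3.38 kb in ASC, 9.31 and 6.21 kb in control siRNA, and 5.92 and 5.71 kb in LncMyod siRNA. QSC and ASC overlapped, and all cultured libraries lay above them. It rose from QSC to control siRNA by 0.94 (SE 0.23, adjusted p = 0.0358), and the adjusted p was 0.0573 to 0.214 with any 1 of the 4 libraries left out. From ASC the change was 0.83 (SE 0.23, adjusted p = 0.0983). It was past the threshold over the gene body alone (1.39, adjusted p = 0.0456), with flanks of 50 kb (0.64, adjusted p = 0.0351) and with lists of equal length (0.9, adjusted p = 0.0476). By number of peaks it was 0.40 (adjusted p = 0.464), and with peaks of −log10 q of at least 5 alone 1.77 (adjusted p = 0.155).

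Of the troponin C genes, Tnnc2, the fast form (chromosome 2, 164777161 to 164779734), held 2.46 and 2.85 kb in QSC, 3.80 and 4.06 kb in ASC, 3.60 and 3.44 kb in control siRNA, and 3.82 and 3.43 kb in LncMyod siRNA. Both QSC libraries were below all others. The locus rose from QSC to ASC by 0.49 (SE 0.12, adjusted p = 0.0414), and the adjusted p was 0.0759 to 0.168 with any 1 of the 4 libraries left out. The gain lay in a region at the end of the gene (chr2:164776141-164777799), with 0 and 200 bp in QSC, 1243 and 1579 bp in ASC, and 986 to 1327 bp in culture. Beside it, the 2 strongest regions of the locus overlap Ube2c and Snx21 and had folds of 6.26 to 8.41 in all libraries. Tnnc1, the slow and cardiac form (chromosome 14, 31208312 to 31211729), had 2.90 to 3.84 kb in every library and by covered length passed in no comparison, with adjusted p from 0.400 to 0.882. It was past the threshold in control siRNA against both ASC and QSC with flanks of 50 kb and by number of peaks, with 4 peaks in each isolated library, 7 and 7 in control siRNA, and 7 and 6 in LncMyod siRNA. By this unscaled number, 82.4% of all genes called against ASC and 78.9% of those called against QSC were higher in control siRNA. Within the Tnnc1 locus, a region upstream of the start, inside Nisch, was covered by 1950 to 2118 bp in the isolated and by 991 to 1237 bp in the cultured libraries. Another, downstream of the gene (chr14:31214707-31216049), was covered by 291 to 485 bp in the isolated and by 1036 to 1275 bp in the cultured ones. The authors' fold went the other way at both. In the Nisch region it was 3.21 to 3.55 in the isolated and 4.0 to 4.81 in the cultured libraries. In the downstream region it was 2.44 to 3.86 in the isolated and 2.06 to 2.52 in the cultured libraries.

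Of the tropomyosins, Tpm2 (chromosome 4, 43513726 to 43523583) held 5.03 and 5.21 kb in QSC, 3.85 and 4.45 kb in ASC, 6.62 and 6.65 kb in control siRNA, and 4.71 and 5.77 kb in LncMyod siRNA. Both control siRNA libraries were above the rest. Tpm2 rose from ASC to control siRNA by 0.62 (SE 0.13, adjusted p = 0.0460), and the adjusted p was 0.0971 to 0.200 with any 1 of the 4 libraries left out. Most of this difference lay in a single broad, weak region at the far end of the gene, overlapping Car9 (chr4:43511874-43514763). Peaks covered 2563 and 2559 bp of it in control siRNA, 2060 and 1440 bp in LncMyod siRNA, and none in the isolated libraries, with −log10 q of 1.51 to 3.30. With peaks of −log10 q of at least 5 alone the change was -0.14, and with lists of equal length -0.05.

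Tpm1 (chromosome 9, 67022590 to 67049672) held 3.04 and 2.98 kb in QSC, 3.74 and 5.50 kb in ASC, 4.37 and 5.82 kb in control siRNA, and 4.05 and 5.24 kb in LncMyod siRNA. QSC was below all other libraries, which overlapped. The changes were 0.52 from QSC to ASC (adjusted p = 0.161) and 0.66 from QSC to control siRNA (adjusted p = 0.0769). Counted by number of peaks, with 4 and 4 in QSC against 7 and 8 in ASC, the first was 0.76 (adjusted p = 0.00217). With peaks of −log10 q of at least 5 alone, the first change was 0.04 and the second 0.01. With lists of equal length they were 0.50 and 0.07. Tpm1 held 3 of the 4 regions at the members that were specific to ASC, meaning held by both ASC and by neither QSC library. Tpm3 (chromosome 3, 90072651 to 90100902) had 1.54 to 2.52 kb in the isolated libraries, 3.51 and 3.41 kb in control siRNA, and 3.96 and 1.53 kb in LncMyod siRNA. The LncMyod siRNA replicates were thus the highest and the lowest of all 8, and Tpm3 passed in no comparison in the fit of all 8 libraries. In a fit on the 4 libraries of control siRNA and QSC alone, it was past the threshold.

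All 6 fast and slow troponin loci had more covered length in both control siRNA than in both QSC libraries, of which Tnnt3, Tnni2 and Tnni1 passed the test. Against ASC, 4 of the 6 did, of which Tnnt3 passed; Tnni2 overlapped and Tnnc2 was lower in both control siRNA libraries. The difference between the means of the fast and slow loci moved by 0.39 from QSC to control siRNA. The mean log2 value of the 3 fast loci minus that of the 3 slow loci was -0.81 and -0.80 in QSC, -0.53 and -0.62 in ASC, -0.30 and -0.54 in control siRNA, and -0.12 and -0.47 in LncMyod siRNA. It was lowest in QSC, and the 6 other libraries overlapped. Between groups it changed by 0.24 from QSC to ASC, 0.16 from ASC to control siRNA and 0.12 from control siRNA to LncMyod siRNA, beside an SD between replicates of 0.15. The sum hid opposite moves of the pairs. From ASC to control siRNA the troponin T pair (Tnnt3 minus Tnnt1) changed by 1.51, the troponin I pair (Tnni2 minus Tnni1) by -0.78 and the troponin C pair (Tnnc2 minus Tnnc1) by -0.27. From QSC to ASC the same pairs changed by -0.62, 0.88 and 0.44. These differences are on the log2 scale of whole loci and not per length, so their level says nothing of which gene is more open, and no test was made of them. In QSC, ASC and control siRNA, all covered sequence of the Tnni2 locus lay in regions that overlap Syt8. Most of the Tnnt3 length lay in a region that also overlaps Prr33. With flanks of 50 kb, where the Tnni2 and Tnnt3 loci share sequence and so do those of Tnni1 and Tnnt2, the change from ASC to control siRNA was -0.29.

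**Figure D4:**
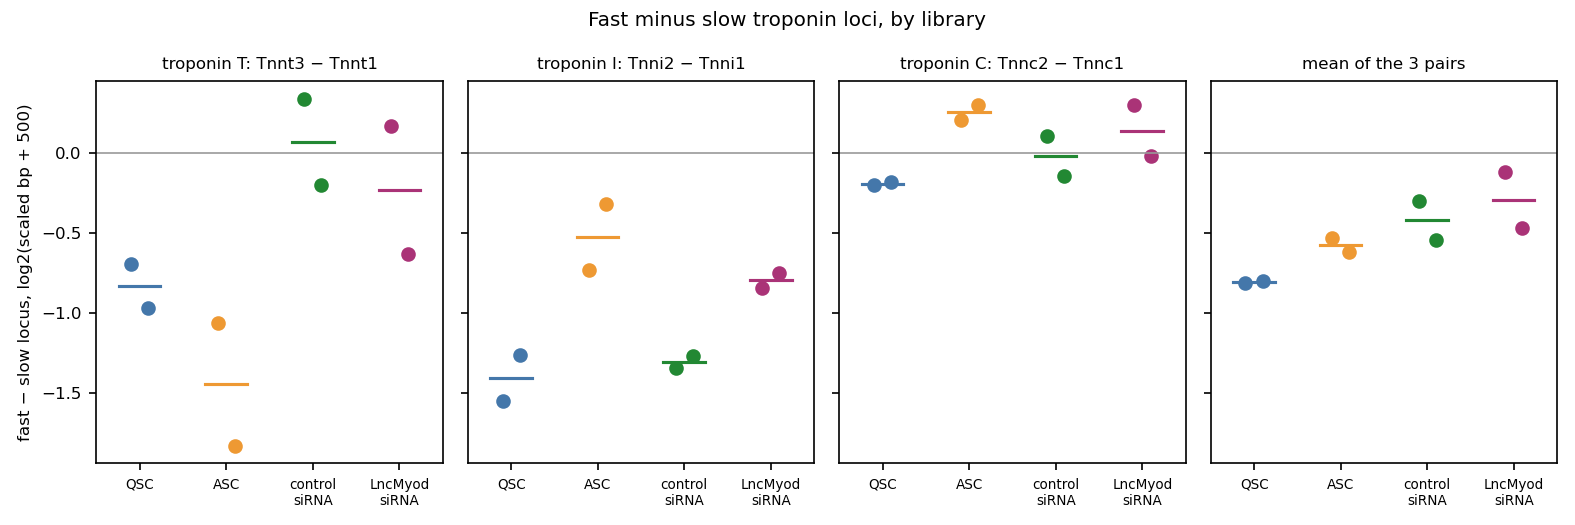
Fast minus slow troponin locus, in log2(scaled bp + 500) (vertical axis), for each pair and for their mean, by group; points are libraries and bars group means. Between ASC and control siRNA the troponin T pair lies higher by 1.51 and the troponin I pair lower by 0.78, and the mean of the 3 pairs ranges from -0.81 to -0.12.

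When peaks of all libraries were merged, the member loci held 73 of 141301 regions. Of these, 37 touched the member's gene body, 36 lay in the flanks, and 27 overlapped the body of another gene. All 8 libraries held 27 (37.0%, against 25.0% of all regions), at least 1 in each member, with folds of 2.06 to 8.41. All 4 cultured and no isolated library held 7 (9.59%, against 4.78%), with folds of 1.95 to 4.24. The reverse pattern had none (against 0.551%). The 7 regions lay at 4 members. Tnni1 held 3: one over its starts, chr1:135776523-135777204 upstream of the gene, and chr1:135784689-135784969 inside it. Tnnt2 held 2, chr1:135834132-135834659, upstream of its start (at -1675 bp), and chr1:135854771-135856055 beyond the gene's end. The others were the Car9 region of Tpm2 and chr14:31212430-31213223, just beyond Tnnc1. By a count chosen after the data were seen, the 7 became 3 with lists of equal length and 2 with peaks of −log10 q of at least 5. Neither of these 2 is among the 7: they are the Tnnt2 start region and chr1:135843536-135845385, whose peaks in isolated libraries were weak.

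**Figure D5:**
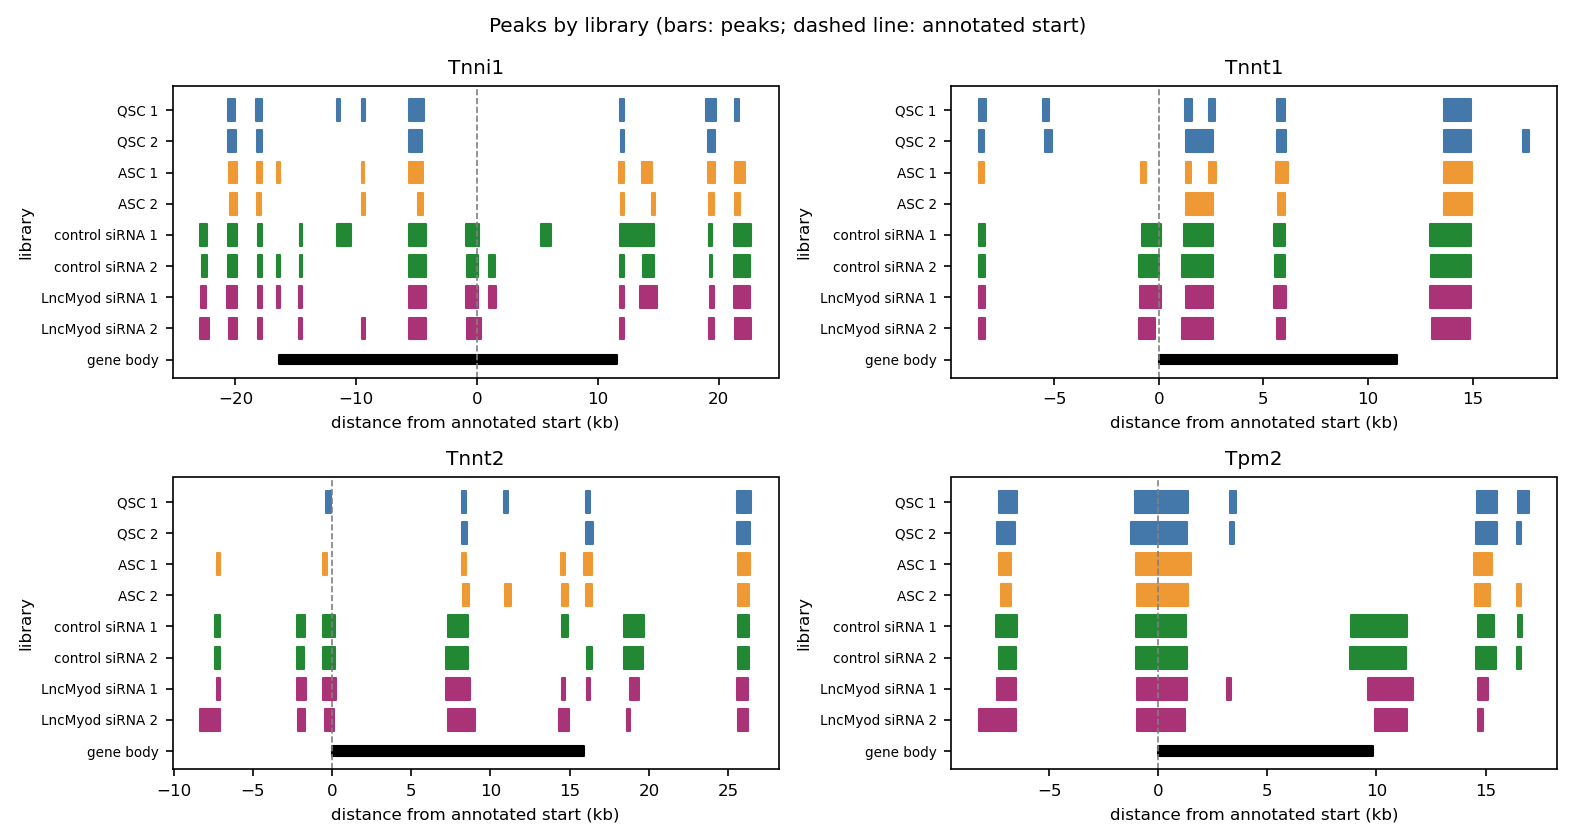
Peaks of each library (rows, coloured by group) at Tnni1, Tnnt1, Tnnt2 and Tpm2, by distance from the annotated start in kb (horizontal axis), with the gene body in black. Bars reach the 300 bp start window in the 4 cultured libraries and no isolated one at Tnni1 and Tnnt1, in these 4 and QSC replicate 1 at Tnnt2, and in all 8 at Tpm2.

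Regions held by both libraries of one group and neither of another were also counted. ASC and QSC had 4 specific regions each at the members (5.99% and 8.54% of all regions). Control siRNA had 12 against ASC and ASC had 2 (11.7% and 2.64% of all). Control siRNA had 14 against QSC, and QSC had 2 (15.5% and 8.09% of all), namely the Tnni3 region at Tnnt1 and 1 inside Tpm2. As shares of the 73, the 12 and the 14 are 16.4% and 19.2%. The 12 lay at Tnni1 and Tpm3 (3 each), Tnnt2 and Tnnc1 (2 each), and Tnnt3 and Tpm2 (1 each).

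LncMyod siRNA was compared with control siRNA to ask what the siRNA against this RNA does in the same culture. ATAC-seq does not measure the RNA, so the knockdown is not checked here. No member of the 10 passed in limma's fit, with adjusted p from 0.471 to 0.957. The count at an unadjusted p under 0.05 was 1 of the 10, beside 2740 of all 27938 genes. That member was Tpm2, with a log2 change of -0.32 (limma adjusted p = 0.471). Log2 changes ran from -0.44 at Tnnt3 to 0.15 at Tnni2. Both LncMyod siRNA libraries were below both control siRNA libraries at Tnnt1, Tnni1 and Tpm2 (3 of 10, against 24.4% of all genes) and above them at none (against 14.9%). At Tnni1, control siRNA replicate 1 stood apart, with 9.31 kb beside 6.21, 5.92 and 5.71 kb in the other cultured libraries. Control siRNA had 2 specific regions at the members, 1 at Tnnt3 and 1 at Tpm2, and LncMyod siRNA had none (1.42% and 2.20% of all regions). With 2 libraries a side, a change smaller than this spread was not detectable.

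Other genes of the thin filament and of the fibre types were tested in the same fit, as background. Of 20 further thin-filament genes, 4 rose and 1 fell from QSC to ASC, 5 rose and 1 fell from ASC to control siRNA, and 6 rose and 1 fell from QSC to control siRNA. Their median log2 changes were 0.10, 0.25 and 0.26. Over all genes, 12.8%, 3.99% and 16.9% were called in these comparisons, the shares to set beside the fibre-type lists below as well. Acta1, the skeletal actin gene, had 2.16 and 1.91 kb in QSC, 2.11 and 2.30 kb in ASC, and 4.28 and 3.94 kb in control siRNA, and rose in both comparisons with control siRNA (0.77 from ASC, adjusted p = 0.0257; 0.86 from QSC, adjusted p = 0.00606). Over the gene body alone, the Acta1 changes were -0.77 and -0.65. Neb, encoding nebulin, had 1.45 and 1.17 kb in QSC, 1.92 and 2.34 kb in ASC, and 5.43 and 5.37 kb in control siRNA, and rose in the same comparisons. Klhl41, encoding a muscle kelch protein tied to nebulin, was listed at 0 in QSC, had 0.917 and 0.783 kb in ASC and 3.16 and 2.64 kb in control siRNA, and rose in all 3 comparisons. Actc1, the cardiac actin gene, rose in both comparisons with control siRNA. Lmod3, a leiomodin gene, rose from QSC to ASC and to control siRNA, Xirp2 rose from ASC to control siRNA, Tmod1 rose from QSC to control siRNA and Tmod3 rose from QSC to ASC. Tmod4, a tropomodulin gene, rose from QSC to ASC and fell from ASC to control siRNA. Lmod2 fell from QSC to ASC, and Nebl, encoding nebulette, fell from QSC to control siRNA.

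Among 9 fast-fibre genes, 1 rose and 1 fell from QSC to ASC, none passed from ASC to control siRNA, and 3 rose and 2 fell from QSC to control siRNA, with median log2 changes of -0.23, 0.16 and -0.13. From ASC to control siRNA, 3 of the 9 had an unadjusted p under 0.05, as did 6236 of all 27938 genes. Myl1, a fast myosin light chain gene, had 0.377 and 0.337 kb in QSC, 2.01 and 0.588 kb in ASC, and 5.26 and 5.77 kb in control siRNA. Atp2a1, the fast calcium pump gene, rose in ASC and control siRNA against QSC, and Actn3, an alpha-actinin gene of fast fibres, rose in control siRNA against QSC, as did Myl1. Myh4 and Myh2, fast myosin heavy chain genes, fell from QSC to control siRNA, and Myh4 was listed at 0 in both ASC libraries and fell there too. Of 7 slow-fibre genes, 1 rose from QSC to ASC (Casq2), 1 from ASC to control siRNA (Myl2), and 4 from QSC to control siRNA (Myh7b, Myl2, Casq2 and Myoz2), and none fell; the medians were -0.21, 0.51 and 0.71. Casq2, encoding a calsequestrin, had 0.559 and 0.697 kb in QSC, 4.95 and 4.15 kb in ASC, and 7.22 and 6.11 kb in control siRNA. No gene of these 3 lists passed between LncMyod siRNA and control siRNA. There 4 of 20, 1 of 9 and none of 7 had an unadjusted p under 0.05, beside 2740 of all 27938 genes. Of 8, 7 and 16 calls over the 3 lists in the first 3 comparisons, in the order above, 2, 0 and 3 held with each of the 4 libraries left out in turn: Klhl41 and Casq2 from QSC to ASC, and Acta1, Klhl41 and Casq2 from QSC to control siRNA.

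Outside these lists, the 5 protein-coding genes whose log2 covered length followed the mean of the fast troponins most closely over the 8 libraries were Tex19.2 (Pearson r = 0.989), Adam23 (0.985), Ak1 (0.981), Cox6a2 (0.979) and Spg21 (0.978). Ak1 encodes adenylate kinase 1, and Cox6a2 the heart and muscle form of a cytochrome c oxidase subunit. Cox6a2 was listed at 0 in both QSC libraries and ASC replicate 2, with 1.52 and 1.07 kb in control siRNA. These were picked from all genes for their likeness, and all points share the libraries' totals, so the correlations are a description.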

How the data were processed

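The authors deposited 1 list of broad peaks per library, called on each library alone. The submitters' processing notes name MACS2 2.1.1, Bowtie2 2.3.2, Trimmomatic 0.36, SAMtools 1.3, Picard 2.9.2, bedtools 2.26.0 and bcl2fastq 2.19 with mm10. Settings and any Tn5 shift of read ends: not given in the sources used here. The authors' columns hold, for each peak, a fold enrichment (a ratio), a −log10 p, a −log10 q and a display score, which served to describe, filter or rank peaks of the same list. Without read counts, depth is unknown and counting error cannot be stated.

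Covered length per locus was scaled to the library total (mean 51.2 Mb). limma 3.58.1 (R 4.3.3) fitted 4 group means to log2(scaled bp + 500 bp) in all 8 libraries with a trended prior, with Benjamini-Hochberg adjustment within each comparison over 27938 genes and a threshold of 0.05; it was tested on simulated data. Neighbouring loci can share peaks. Peaks that overlapped or touched were merged into 141301 regions, and a library held a region from 1 bp of overlap. Starts and sequences came from RefSeq tables (GRCm38.p6). The named genes were the 10 members, the listed thin-filament and fibre-type genes past the threshold, and the 5 genes most like the fast troponins. Members and lists were chosen with earlier results of these data known. Alternatives were another scaling, pseudocounts of 100 and 2000 bp, gene bodies alone or with 50 kb flanks, a −log10 q of at least 5, lists of equal length (59666 peaks), peak number, no filter, a replicate block, a fit on 4 libraries and leaving out each library. Python 3.11.15, numpy 2.4.6 and pandas 2.3.3 were used.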

Additional observations from a re-analysis of the deposited data

How the results depend on the processing

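Calls of members depended on the setting. From QSC to ASC, 2 became 0 without scaling or with any library left out, and 1, Tnni2, with quantile normalization, a replicate block or a fit on 4 libraries. Neither call was made with gene bodies alone, a −log10 q of at least 5 or peak number, which each called 1 other member (Tnnt3, Tnnt2 and Tpm1). From ASC to control siRNA, 3 became 1, Tnnt3, with the replicate block, 0 in a fit on 4 libraries and 0 to 1 with a library left out. None of the 3 was called with gene bodies alone or peak number, which called 1 other each (Tnni1 and Tnnc1). From QSC to control siRNA, 4 became 2 with a −log10 q of at least 5 (Tnnt2 of the 4, and Tnnt1) or peak number (Tnnc1 and Tpm1, none of the 4), 5 with the replicate block (the 4 and Tpm1), and 0 to 2 with a library left out. In 2 settings the count from QSC to control siRNA stayed at 4 with other members. Without scaling, Tnnt3 and Tnni1 were lost and Tpm1 and Tpm2 called. In a fit on 4 libraries, Tnni2 and Tnni1 were lost and Tpm2 and Tpm3 called. From ASC to control siRNA, Tnnt3 was lost without scaling, and Tnnt3 and Tpm2 with a −log10 q of at least 5, which called Tnnt1. With 50 kb flanks and with equal lists the counts rose. From QSC to ASC they were 3 and 3, without Tnnc2: both called Tnni2 and Tnnt2, with Tpm1 and Tnnt3 in turn. From ASC to control siRNA they were 4 and 4, without Tpm2: both called Tnnt3, Tnnt2 and Tnni1, with Tnnc1 and Tnnt1 in turn. From QSC to control siRNA they were 6 (the 4, Tnnc1 and Tpm1) and 5 (the 4 and Tnnt1). LncMyod siRNA gave 0 members in every alternative. Deviations of same-numbered libraries from their group means correlated little between groups (0.00783 to 0.0964). The labels do not state whether replicates were paired, and with 2 libraries per group these values cannot settle it.

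Signs turned as follows. Tnnt3 from QSC to ASC was 1.21 over the gene body, 0.09 with a −log10 q of at least 5 and 0.50 by peak number. Tpm2 with equal lists was -0.05 from ASC to control siRNA (-0.14 with a −log10 q of at least 5), -0.35 from QSC to control siRNA and 0.17 for LncMyod siRNA. From QSC to control siRNA, Tnnt1 by peak number was -0.22, Myl2 with equal lists -0.10, and Myh2 over the gene body 0.37. Acta1 over the gene body was -0.77 from ASC and -0.65 from QSC. The fast minus slow change from ASC to control siRNA was -0.29 with 50 kb, -0.17 by peak number and -0.02 with Tpm1 and Tpm3 added. From QSC to control siRNA, 0.39 became -0.01 with 50 kb, 0.21 with a 2000 bp pseudocount, 0.55 with a −log10 q of at least 5 and 0.01 by peak number. For LncMyod siRNA it was 0.35 with a −log10 q of at least 5 and -0.05 to 0.30 with a library left out. With gene bodies alone it was not run, as Tnni2 fell below the filter. The cause was not tested in any of these.

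Specific regions with a −log10 q of at least 5 numbered 1 for ASC and 1 for QSC in their comparison, 1 for ASC against control siRNA, 4 for control siRNA against LncMyod siRNA and 1 for QSC against control siRNA. With equal lists they were 6 for ASC against control siRNA, 1 for LncMyod siRNA, and 9 and 4 for control siRNA and QSC. When 50% of a region had to be overlapped they were 1 for LncMyod siRNA and 22 for control siRNA against QSC. With a library left out, they were 5 to 9 for ASC against QSC, 2 to 5 and 0 to 3 for control and LncMyod siRNA, and 15 to 22 and 2 to 4 for control siRNA and QSC. The counts with a library left out could only stay or rise, because leaving one out removes a condition. Regions held by the cultured libraries alone numbered 2 and 3, and start windows 1 and 0, with a −log10 q of at least 5 and equal lists, alternatives chosen after seeing the data. The 1 window was the first of Tnnt2, which did not have this pattern in the main setting. No Tnni1 or Tnnt1 window kept the pattern in either alternative.

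Over all genes, 3580 calls from QSC to ASC ranged from 712 (without QSC replicate 2) to 7086 (50 kb), 1116 from ASC to control siRNA from 0 to 2979, 6 for LncMyod siRNA from 0 to 710, and 4726 from QSC to control siRNA from 1013 to 7848. The share of higher calls moved from 57.0% to 76.9% without scaling from ASC to control siRNA, and from 59.0% to 48.4% with quantile normalization from QSC to ASC.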
